A study of Chromochloris zofingiensis with 18 samples.

Results

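The genes described here are the 150 genes of Chromochloris zofingiensis whose mRNA was lowest late in sulfur starvation while it had been within 2-fold of the start after 6 h. They were taken from 15220 genes listed in at least 1 of 18 mRNA-seq samples. For each gene the mean of log2(FPKM + 1) was taken over the 3 replicates of a condition, FPKM being the reads of a gene scaled to its length and to the depth of the sample. Among the 10415 genes whose mean at SS-6 h differed from that at 0 h by less than 1, with 1 gene left out, those were chosen whose mean at SS-48 h lay furthest below the lowest mean of the 4 earlier conditions (0 h to SS-24 h). This distance is called the margin below. The 150 genes were therefore chosen for being low at SS-48 h, and their values from 0 h to SS-48 h are a description with no test.

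C. zofingiensis is a unicellular green alga, and all samples were of strain ATCC30412, grown in columns under continuous light with CO2-enriched air. Cells of the 0 h condition, the start, were collected as cultures growing in log phase were moved into medium in which MgCl2 took the place of MgSO4, and the starved conditions, SS-6 h to SS-48 h, are named by the hours spent in that medium (6, 12, 24 and 48). SR-12 h, also called replenishment below, was collected 12 h after sulfate was given back to cells starved for 48 h. The sources differ on whether the cells were then moved into fresh medium or received sulfate in the same culture, so that a change of medium and the return of sulfur cannot be told apart at SR-12 h. Each condition had 3 biological replicates, all of polyadenylated RNA. None of the 18 samples came from a culture kept in sulfur beyond 0 h. Lack of sulfur, the move to new medium and time in culture therefore cannot be told apart in the starved conditions.

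Sulfur is needed for cysteine and methionine, for glutathione, for the iron-sulfur clusters of electron carriers and for the sulfolipid of thylakoid membranes. In Chlamydomonas, a relative in which sulfur starvation has been studied for long, starved cells lower their photosynthetic electron transport and stop dividing. In the chloroplast, the cytochrome b6f complex passes electrons from photosystem II on towards photosystem I and moves protons into the thylakoid lumen, ferredoxin takes the electrons from photosystem I, and the chloroplast ATP synthase makes ATP from the proton gradient.

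The level of the 150 genes stayed near that of 0 h for a day and was lower at SS-48 h in each of the 3 replicates. Relative to the mean at 0 h, the median gene stood at -0.20, -0.06 and -0.11 on the log2 scale in the SS-6 h replicates. After 12 h it stood at -0.27, -0.23 and -0.17, and after 24 h at -0.30, -0.24 and -0.29. At SS-48 h it stood at -1.34, -1.32 and -1.35. These 3 medians lay close together, and their distance from the earlier ones follows from the choice of the genes. Within single genes the SS-48 h replicates varied more, with a median SD of 0.20 on the log2 scale, against 0.09 at 0 h and 0.26 at SS-6 h. Over all 15220 genes, the median at SS-48 h was 0.19 above that at 0 h, the direction opposite to that of the 150 genes. FPKM gives a share of the mRNA of a culture, so that fewer transcripts of a gene per cell and more of other transcripts cannot be told apart. In FPKM, the median of the 150 condition means was 67.7 at the start, 70.6 after 6 h, 66.8 after 12 h, 60.7 after 24 h, 28.5 after 48 h and 56.7 after replenishment. In 131 of the 150 genes each SS-48 h replicate lay below each of the 12 earlier samples, as it did in 3.23% of all genes; the rule had used these samples.

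**Figure D1:**
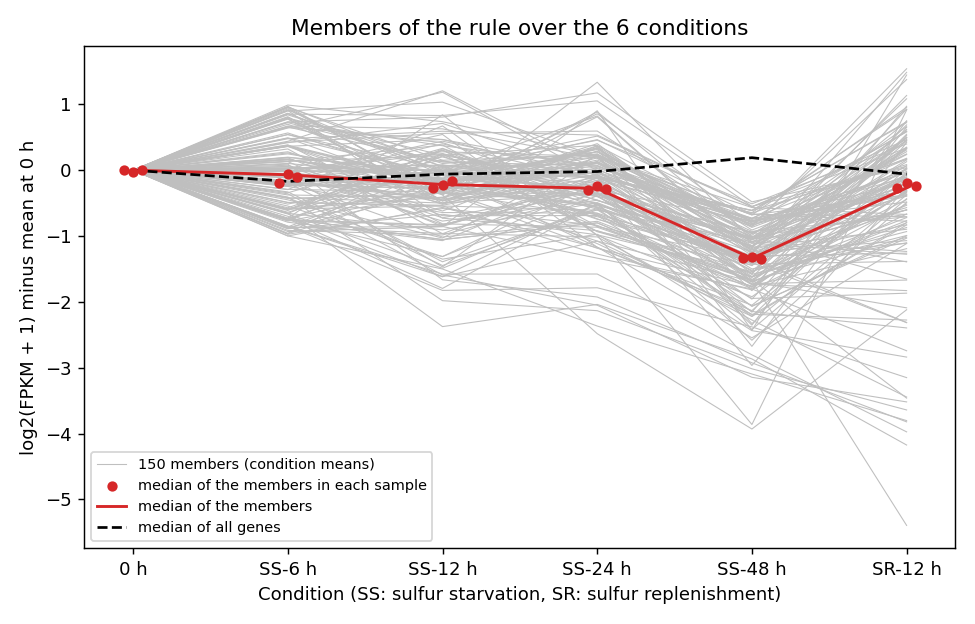
The y axis gives log2(FPKM + 1) minus the mean at 0 h for each of the 150 genes (grey lines, condition means), their median in each sample (red points) and over the condition means (red line), and the median of all 15220 genes (dashed), over the 6 conditions on the x axis. The median of the 150 genes was -1.34 after 48 h and -0.27 after replenishment, while the grey lines fan out from -5.40 to 1.54 at SR-12 h.

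The name of the set, genes repressed only at 48 h, did not hold for each of its genes. The margin was 2.87 for Cz01g46130 and 1.88 for Cz05g12110, the genes with the widest margins. Its median was 0.73, and 33 of the 150 genes had a margin of at least 1. At the limit of the rule, Cz02g36020 was the last gene inside and Cz05g27290 the first outside, both with a margin of 0.468. At SS-12 h, 22 of the 150 genes were already at least 1 below 0 h, against 12.1% of all genes, and after 24 h 18 were, against 6.94%. At SS-48 h 111 were, against 8.11% of all genes. A total of 32 genes were at least 1 below 0 h at one of these times or at both. Of the first 4 conditions, SS-12 h was the lowest in 59 genes and SS-24 h in 55, while the start and SS-6 h were each the lowest in 18.

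The scaling of the samples and 1 library bear on which genes the rule took. With quantile normalization of log2(FPKM + 1), 91 of the 150 genes were chosen again. SS-6 h replicate 1 had the lowest relative depth of the 18 samples as read from the FPKM values, 0.756 of the deepest. The paper gives it about as many clean reads as the other samples, but a smaller share of them mapped to genes. The members varied more among the SS-6 h replicates (median SD 0.26 on the log2 scale) than among those of SR-12 h (0.10) or SS-48 h (0.20). Without SS-6 h replicate 1, 128 of the 150 genes were chosen again. Of the 22 others, 19 then passed the limit of 1 at SS-6 h, 11 of them downward and 8 upward. The 11 include PETC, PETN, PETM, PSB27A and Cz10g23150, which are described below. In PETC, PETN, PETM and PSB27A the level was lower after 6 h than after 12 h, before it was lowest at SS-48 h. For these 11 genes the words "only at 48 h" thus rest on 1 library, while the 8 others were higher than 0 h at SS-6 h.

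Of the 150 genes, 28 carry a symbol, a KEGG orthology or a description in the annotation used here, 12 of them a symbol. The other 122 have none of these, though some of them stand in a KEGG or GO list. In all, 45 of the 150 genes (30.0%) were named in the annotation or the lists, against 10.4% of all genes. Of the 28, 7 are hypothetical or predicted proteins without a symbol or an orthology. A part of the annotation used here covered 592 genes, 3.89% of all genes but 23.3% of the 150. Within it, 7.3% of the genes with a chloroplast or photosynthesis annotation were members, against 5.49% of the others, a similar share. The groups named below thus depend on which genes are annotated. The largest annotated group is photosynthetic electron transport and ATP synthesis: ferredoxin (PETF), 3 subunits of cytochrome b6f (PETC, PETN and PETM) and 3 subunits of the chloroplast ATP synthase (ATPD, ATPC1 and ATPG). These 7 genes had 21.4% to 44.9% of their 0 h level at SS-48 h and 90.7% to 146% of it after replenishment. Each of the 7 rose between SS-48 h and SR-12 h, and none was called different from 0 h at SR-12 h.

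PETF (Cz07g28150), the ferredoxin that hands electrons from photosystem I to NADP reduction and other reactions, was the most abundant of the 7. Its FPKM was 2819, 2566 and 2750.1 at the start, 4654, 2674 and 2678 after 6 h and 2623, 2253 and 2481 after 12 h of starvation. It was 1241, 1274 and 1235 after 24 h, 578, 592 and 572 at SS-48 h, then 2732, 2846 and 2740.1 with sulfur back. The level thus went down in steps at SS-24 h and again at SS-48 h, each time with no overlap between replicates, and the replenished samples overlapped those of the start. The rise after replenishment was 2.25 ± 0.17 on the log2 scale (SE), with an adjusted p of 1.3e-08 in limma, and the difference of SR-12 h from 0 h was 0.03 ± 0.17 (adjusted p = 0.90). The rule had used the SS-48 h samples to choose the genes for being low. P-values of rises from SS-48 h, for PETF and the other members below, are therefore not independent evidence of a rise.

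PETC (Cz13g12160) encodes the Rieske iron-sulfur subunit, the part of cytochrome b6f that takes electrons from plastoquinol. Its FPKM was 1714, 1789 and 2115 at the start, 1346, 879 and 721 after 6 h and 1169.8, 1209 and 1364 after 12 h of starvation. It was 1038, 1029 and 1063 after 24 h, 555, 514 and 538 at SS-48 h, then 1650.1, 1829 and 1614 with sulfur back. Its SS-6 h replicates 2 and 3 lay below the samples of SS-12 h and SS-24 h, and replicate 1 did not. After replenishment it rose by 1.66 ± 0.17 (SE; limma, adjusted p = 4.2e-07).

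PETN (Cz16g12040) and PETM (Cz07g02140) encode small subunits of the same complex that stabilise it. PETN had an FPKM of 803, 884 and 953 at the start, 618, 407 and 360.3 after 6 h, 734, 676 and 875 at SS-12 h, 549, 548 and 544 after 24 h, 253, 241 and 272 at SS-48 h, then 1187, 1456 and 1219 with sulfur back. PETM had 499, 505 and 541 at the start, 373, 272 and 223 after 6 h, 196, 177 and 199.9 at SS-48 h, then 716, 733 and 733 after replenishment. In both genes the 3 SR-12 h samples lay above the 3 samples of 0 h. Against SS-48 h PETN rose by 2.33 ± 0.16 and PETM by 1.92 ± 0.14 (SE; limma, adjusted p = 5.8e-09 and 1.5e-08). Against 0 h the differences were 0.55 ± 0.16 and 0.50 ± 0.14, with adjusted p of 0.0097 and 0.0091 but under the fold limit of 1.

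The 3 ATP synthase subunits were likewise lowest at SS-48 h. ATPD (Cz05g34180), the delta chain that holds the stator to the catalytic head, had an FPKM of 1078, 1136 and 1363 at the start, 1102, 768 and 675 after 6 h and 1121, 1199 and 1213 after 12 h of starvation. It had 895, 974 and 921 after 24 h, 414, 429.8 and 501 at SS-48 h, then 1129, 1190.3 and 1103 with sulfur back. The SS-48 h samples lay below the 15 others. ATPC1 (Cz09g21130), the gamma chain that turns inside the head, had 1024, 1074 and 1157 at the start, 429, 421 and 440.2 at SS-48 h, then 1210.4, 1180.1 and 1165 after replenishment. ATPG (Cz02g27060), a subunit of the stator stalk, had 735, 772 and 878 at the start, 386, 331 and 354 at SS-48 h, then 1069.7, 998 and 952 after replenishment. The rises after replenishment were 1.35 ± 0.15, 1.46 ± 0.14 and 1.50 ± 0.13 (SE) for ATPD, ATPC1 and ATPG, with adjusted p of 9.3e-07, 1.7e-07 and 7.7e-08 in limma.

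**Figure D2:**
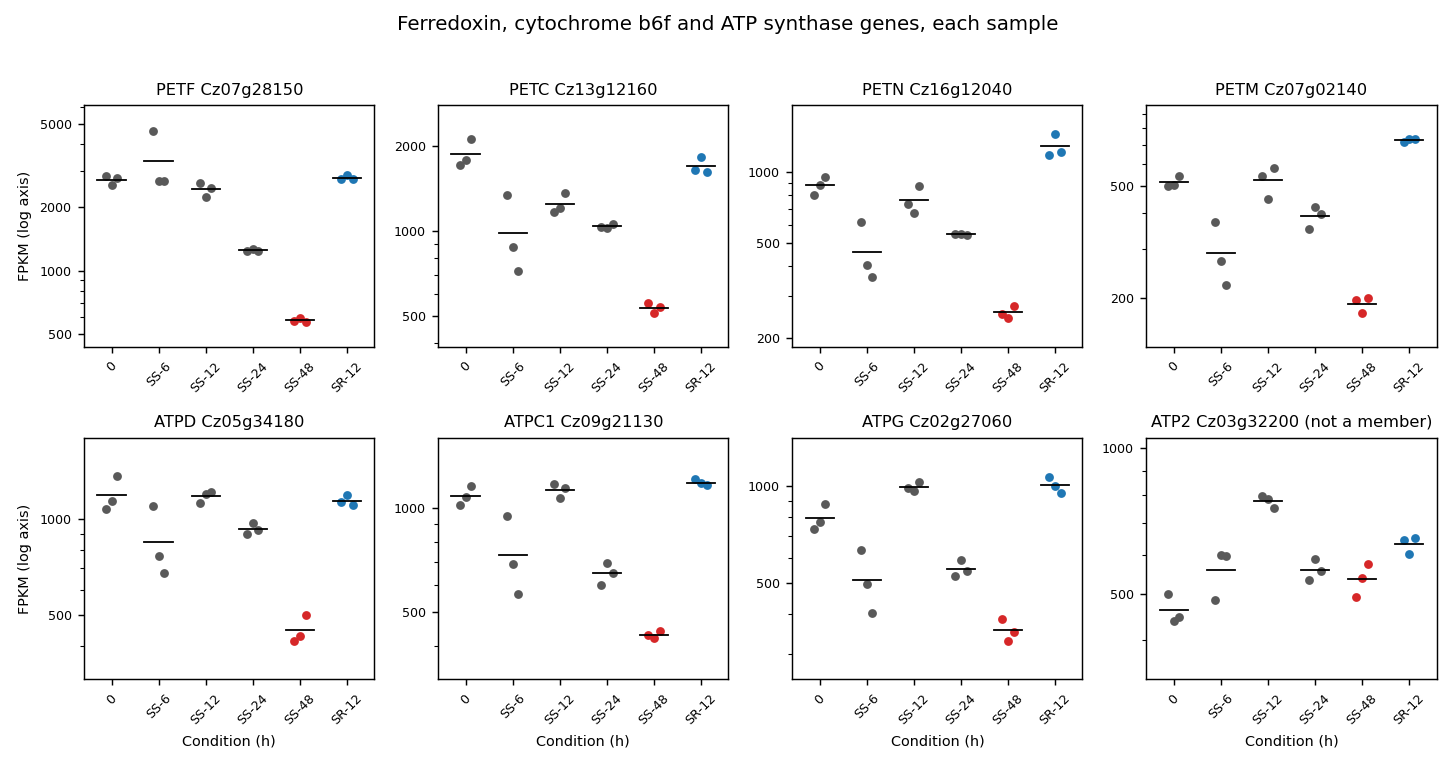
Each panel gives the FPKM (log axis) of 1 gene in each of the 18 samples over the 6 conditions, with the mean of the 3 replicates as a bar, SS-48 h in red and SR-12 h in blue. In the 7 members the SS-48 h samples are the lowest of their panel, and in ATP2, a subunit of the mitochondrial ATP synthase shown for comparison, they are not.

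The annotation used here gives a PET or ATP symbol to 14 genes, a group put together after the values had been seen, and 7 of them are the members above. The other 7 show what the rule did not take. PETO, a protein of the thylakoid membrane, had a mean of 872 at the start, of 350.5 after 6 h and of 184 after 48 h, and rose to 1276 after replenishment, a difference of 2.79 on the log2 scale. PETJ, the cytochrome c6 that can stand in for plastocyanin, had a mean of 7596 at the start, of 634 after 6 h, of 546 after 48 h and of 4966 after replenishment. PETO missed the set through its level at SS-6 h alone, and PETJ through that level and through its margin, 0.121. The 5 others are mitochondrial ATP synthase genes (ATP2, ATPA, ATPA2, ATPC2 and the mitochondrial ATPD, Cz05g29060), and ATP2 had an FPKM of 499, 438 and 447 at the start, 492, 539 and 575 at SS-48 h, then 647, 606 and 652 after replenishment. None of these 5 was called between SS-48 h and replenishment, with differences of 0.07 to 0.33.

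THF1, PSB27A and PGK, 3 other chloroplast genes of the set, followed the same course. THF1 (Cz05g05190), a thylakoid formation protein with a role in the turnover of photosystem II in plants and cyanobacteria, had an FPKM of 240.0, 242 and 252 at the start, 87.7, 106 and 97.8 at SS-48 h, then 243, 259.7 and 268 after replenishment. PSB27A (Cz04g12110), an assembly factor of photosystem II, had 235, 229 and 251 at the start, 155, 127 and 92.1 after 6 h, 75.9, 75.8 and 77.3 at SS-48 h, then 383, 379 and 391 after replenishment. PGK (Cz16g19260), the phosphoglycerate kinase of the Calvin cycle and of glycolysis, had 717, 755 and 777 at the start, 248, 327 and 333 at SS-48 h, then 947, 910.4 and 969.9 after replenishment. In all 3 genes the samples of SS-48 h lay below those of 0 h and of SR-12 h. After replenishment THF1 rose by 1.40 ± 0.07, PSB27A by 2.32 ± 0.13 and PGK by 1.65 ± 0.12 (SE; limma, adjusted p = 4e-10, 6.6e-10 and 8.7e-09). Against 0 h none of the 3 passed the fold limit, and PSB27A had the largest difference, 0.69 ± 0.13 (adjusted p = 0.00043).

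FAD5 (Cz06g00170), annotated as a desaturase that puts a double bond into the palmitate of the galactolipid MGDG, took another course. The paper lists another gene of the same symbol and annotation, outside the set, as higher in starvation than at the start. The FPKM of Cz06g00170 was 27.0, 27.1 and 24.2 at the start, 10.1, 14.6 and 18.2 after 6 h and 7.27, 8.42 and 7.79 after 12 h of starvation. It was 15.2, 9.90 and 10.9 after 24 h, 2.57, 6.87 and 6.46 at SS-48 h, then 4.65, 3.98 and 5.20 with sulfur back. It was lower at SR-12 h than at 0 h, with a log2 difference of -2.28 ± 0.26 (SE; limma, adjusted p = 3e-06), and its samples of SR-12 h and SS-48 h overlapped. UNPLg00454, annotated as a chlorophyll a/b-binding protein, one of the antenna proteins that collect light, had an FPKM of 257, 233 and 237 at the start, 518, 439 and 371 after 6 h and 464, 557 and 495 after 24 h of starvation. The level was thus 0.85 above the start on the log2 scale after 6 h, 0.83 after 12 h and 1.05 after 24 h. It was 128, 197 and 179 at SS-48 h, then 199, 262 and 310.0 after replenishment, and was called in neither comparison. Its neighbour by ID, UNPLg00453, is also among the 150 genes and differed from it by at most 0.47 in any sample, so that reads shared between the pair may have been split by the counting.

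Members with roles in redox and detoxification differed in their course after replenishment. Cz14g08160 carries the annotation of a glutathione S-transferase, an enzyme that joins glutathione to reactive compounds, and of a maleylacetoacetate isomerase, an enzyme of tyrosine breakdown. Its FPKM was 978, 1018 and 1046 at the start, 1569, 1295 and 1143 after 6 h and 582, 611 and 537 after 12 h of starvation. It was 583, 550.3 and 535 after 24 h, 294, 341 and 313 at SS-48 h, then 24.0, 20.2 and 25.4 with sulfur back. With sulfur back its level thus went down further, to 2.29% of that at 0 h. The difference from SS-48 h was -3.71 ± 0.11 and that from 0 h was -5.40 ± 0.11 (SE; limma, adjusted p = 6.7e-13 and 6.1e-14), the lowest value of the 150 genes in both comparisons.

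Cz07g30160 is annotated as a prostaglandin-H2 D-isomerase or glutathione transferase. Its FPKM was 732, 662 and 765 at the start, 1544, 1163 and 956 after 6 h, 338, 411 and 326 at SS-48 h, then 450.0, 464 and 441 after replenishment, and it was called in neither comparison. Cz09g19090, a thioredoxin-like protein of the family that reduces disulfide bonds, had 388, 399 and 388 at the start, 137, 153 and 152 at SS-48 h, then 68.7, 86.4 and 79.6 after replenishment. Its SR-12 h samples lay below those of SS-48 h, a difference of -0.91 ± 0.12 under the fold limit, and its difference from 0 h was -2.31 ± 0.12 (SE; limma, adjusted p = 9.2e-10). Cz10g23150, an NAD(P)-binding protein with the orthology of a dihydroflavonol 4-reductase, had means that went down at each sampling. Its FPKM was 216, 197 and 239 at the start, 137, 102 and 89.3 after 6 h, 82.5, 74.8 and 70.8 at SS-12 h, 49.5, 39.4 and 35.9 after 24 h, 33.1, 20.4 and 21.6 at SS-48 h, then 12.6, 16.5 and 14.9 with sulfur back. Its difference from 0 h at SR-12 h was -3.81 ± 0.18 (SE; limma, adjusted p = 3.1e-10).

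Further annotated genes belong to protein folding, protein turnover, translation and repair. Cz12g04070, a polyubiquitin, the precursor of the tag that marks proteins for the proteasome, had an FPKM of 549, 636 and 686 at the start, 1369, 880 and 793 after 6 h, 347, 253 and 248 at SS-48 h, then 906, 838 and 879 after replenishment, a rise from SS-48 h of 1.64 ± 0.17 (SE; limma, adjusted p = 6e-07). Cz14g18200, an FK506-binding protein of the prolyl isomerases that help proteins fold, had 607, 537 and 564 at the start, 1182, 816 and 724 after 6 h and 1220, 1307 and 1360 after 12 h of starvation, so that it was highest at SS-12 h, 1.19 above the start on the log2 scale. It had 520, 559 and 513 after 24 h, 331, 397 and 391 at SS-48 h, then 944, 999 and 902 after replenishment, a rise from SS-48 h of 1.35 ± 0.14 (SE; limma, adjusted p = 5.4e-07). Both genes were above their 0 h samples in each SR-12 h replicate but under the fold limit. Cz05g15290, a class II photolyase that repairs ultraviolet damage of DNA in light, had 254, 257 and 274 at the start, 108, 137 and 127 after 24 h, 97.9, 71.2 and 73.5 at SS-48 h, then 156, 149 and 155 after replenishment, between the other conditions. Cz12g09050, a quinone-reducing NAD(P)H dehydrogenase, had 571, 615 and 616 at the start, 234, 224 and 242 at SS-48 h, then 413, 400.2 and 375 after replenishment, also between them. Neither gene passed the fold limit in either comparison. EF3 (Cz13g02110), an elongation factor best known from fungi, had 344, 295 and 265 at the start, 134, 196 and 201 at SS-48 h, then 295, 282 and 295 after replenishment, and was called in neither.

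The widest margins belonged to genes without an annotation. Cz01g46130 had an FPKM of 55.9, 62.7 and 68.8 at the start, 56.2, 39.6 and 23 after 6 h and 126, 103 and 109.8 after 12 h of starvation. It had 32.6, 35.2 and 25.5 after 24 h, 3.55, 4.39 and 2.35 at SS-48 h, then 120.5, 121 and 113 with sulfur back. The lowest sample of the other conditions, 23, lay above the highest of SS-48 h, 4.39, and the replenished samples were near the highest ones of starvation, those taken after 12 h. The rise from SS-48 h was 4.78 ± 0.24 (SE; limma, adjusted p = 1.9e-10), the largest of the 150 genes. Without SS-6 h replicate 1, Cz01g46130 was 1.02 below 0 h at SS-6 h and so just outside the rule. Cz05g12110 had 43.2, 45.8 and 53.7 at the start, 10.1, 8.83 and 10.8 at SS-48 h, then 73.7, 76.5 and 74.8 after replenishment, a rise of 2.81 ± 0.14 (SE; limma, adjusted p = 2.2e-10). Cz19g02190, the most abundant of the 150 genes at 0 h with 4213, 4015 and 3983, had 779, 1242 and 941 at SS-48 h and went to 1661, 1954 and 2616 after replenishment. It rose from SS-48 h by 1.07 ± 0.20 (SE; limma, adjusted p = 0.00024), and its difference from 0 h, -0.996 ± 0.203, fell just short of the fold limit.

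SR-12 h is the condition that the rule did not read, and 2 comparisons were made with it, against SS-48 h and against 0 h. Both share samples with the rule, since the SS-48 h replicates chose the genes for being low and the 0 h replicates were among those they were set against. Calls needed at least a 2-fold change (a log2 difference of 1 or more in size) and a limma p of 0.05 or less after Benjamini-Hochberg adjustment over all 15220 genes. Against SS-48 h, 73 of the 150 genes (48.7%) were higher at SR-12 h, where 8.21% of all genes were, and 5 were lower (8 without SS-48 h replicate 1), where 18.0% of all genes were. The median difference was 0.99 for the 150 genes and -0.32 for all genes. In 114 genes each SR-12 h replicate lay above each SS-48 h replicate, against 22.8% of all genes, and in 15 each lay below, against 55.3%. Scaling of the samples by median ratios gave 95 higher and 3 lower among the 150 genes, and it turned the split over all genes from 1249 higher and 2732 lower to 1775 and 1557.

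Against 0 h, 6 of the 150 genes were higher at SR-12 h, where 4.99% of all genes were, and 34 (22.7%) were lower, where 8.42% of all genes were. With median-ratio scaling these numbers were 11 and 29. The median difference from 0 h was -0.27 over the 150 genes and -0.06 over all genes. The commonest outcome, in 64 genes, was higher than SS-48 h and not called against 0 h, against 6.33% of all genes. These 64 include 10 of the 12 members with a symbol. The share over all genes with a symbol was not examined, so this count is not a result about annotated genes. A further 46 genes were called in neither comparison, against 68.1% of all genes. Their median difference was -0.92 between 0 h and SS-48 h, the smallest of the classes, and 0.67 between SS-48 h and replenishment.

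**Figure D3:**
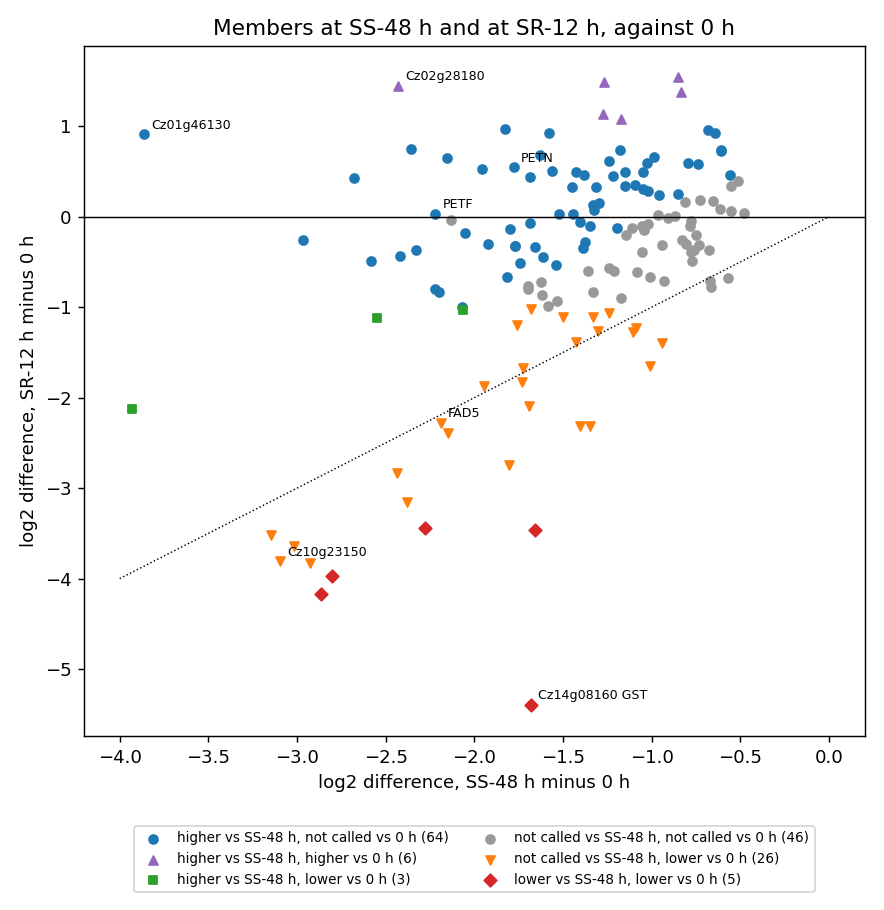
Each point is 1 of the 150 genes, with the log2 difference of SS-48 h from 0 h on the x axis, the log2 difference of SR-12 h from 0 h on the y axis, and colour and shape for the calls of the 2 comparisons. Points on the horizontal line are at their 0 h level at SR-12 h and points on the dotted line are at their SS-48 h level; 64 genes were higher than SS-48 h and not called against 0 h, and 31 were lower than 0 h without being called higher than SS-48 h.

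The 34 genes that were below 0 h at SR-12 h had medians below it from SS-12 h on. Their median difference from 0 h was -0.13 after 6 h, -0.79 after 12 h, -0.73 after 24 h and -1.74 after 48 h, and it was -2.11 after replenishment. The 110 genes not called against 0 h had medians of -0.05, -0.08, -0.12, -1.21 and -0.06 at these times. Of the 32 genes that were at least 1 below 0 h at SS-12 h or SS-24 h, 16 were called lower at SR-12 h than at 0 h, and of the other 118 genes 18 were. These comparisons share the 0 h samples, and their relation was not tested.

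Of the 34 genes, 26 were not called against SS-48 h, an outcome of 2.71% of all genes, 5 were lower than at SS-48 h (5.51% of all genes) and 3 were higher than at SS-48 h but still below 0 h (0.197%). The 5 are Cz14g08160, described above, and Cz12g06250, Cz09g11120, Cz12g26120 and Cz14g18120, which have no annotation here. Cz12g06250 had an FPKM of 50.1, 54.0 and 52.0 at the start, 7.69, 10.4 and 9.78 after 12 h, 7.35, 5.72 and 5.83 at SS-48 h, then 1.85, 1.49 and 2.56 after replenishment. Cz09g11120 had 35.3, 30.2 and 32.7 at the start, 62.5, 62.2 and 61.7 after 6 h, 19.3, 19.6 and 19.0 after 12 h, 6.36, 12.3 and 11.4 at SS-48 h, then 1.76, 1.82 and 2.66 after replenishment. In both genes the SR-12 h samples were the lowest of the 18, with differences from SS-48 h of -1.31 ± 0.14 and -1.80 ± 0.17 and from 0 h of -4.17 ± 0.14 and -3.46 ± 0.17 (SE; limma, adjusted p from 1e-11 to 9.7e-07). Among the 3 partly restored genes, Cz07g19200 had 174, 174 and 176 at the start, 434, 312 and 298 after 6 h, 38.5, 31.8 and 22.9 after 24 h, 11.4, 11.5 and 8.77 at SS-48 h, then 37.6, 37.5 and 43.3 after replenishment. Its difference of SS-48 h from 0 h, -3.93, was the lowest of the set, and -2.48 of it was present after 24 h, at a level near that of SR-12 h. Cz02g36020, the last gene inside the rule's limit, had 350.1, 389 and 314 at the start, 104, 225 and 297 after 6 h, 146, 145 and 124 after 24 h, 74.6, 129 and 102 at SS-48 h, then 46.9, 48.1 and 60.1 after replenishment, and was lower at SR-12 h than at 0 h, with a difference of -2.74 ± 0.28 (SE; limma, adjusted p = 9.4e-07).

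The 6 genes above both SS-48 h and 0 h after replenishment, where 1.68% of all genes were, are Cz02g28180, UNPLg00177, Cz08g15030, Cz08g15040, Cz18g04180 and Cz18g04190. Cz02g28180 had an FPKM of 292, 304 and 298 at the start, 173, 152 and 144 after 6 h and 149.8, 171 and 172 after 12 h of starvation. It had 607, 539.7 and 530.0 after 24 h, 29.2, 79.2 and 68.8 at SS-48 h, then 696, 934 and 828 with sulfur back. Its level thus changed in both directions, being highest of the starved conditions at SS-24 h, a day before its lowest. It rose from SS-48 h by 3.88 ± 0.25 and stood above 0 h by 1.45 ± 0.25 (SE; limma, adjusted p = 2.8e-09 and 0.00018). Cz08g15030 had 15.9, 15.9 and 15.4 at the start, 6.21, 7.86 and 11.5 at SS-48 h, then 48.2, 48.8 and 46.3 after replenishment. UNPLg00177, listed under tetrapyrrole binding, had 15.4, 13.7 and 14.6 at the start, 3.77, 9.49 and 4.39 at SS-48 h, then 33.4, 37.7 and 61.3 with sulfur back. The differences of these genes from 0 h, 1.54 ± 0.17 and 1.49 ± 0.30 (SE; limma, adjusted p = 1.6e-06 and 0.00067), were the highest of the 150.

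**Figure D4:**
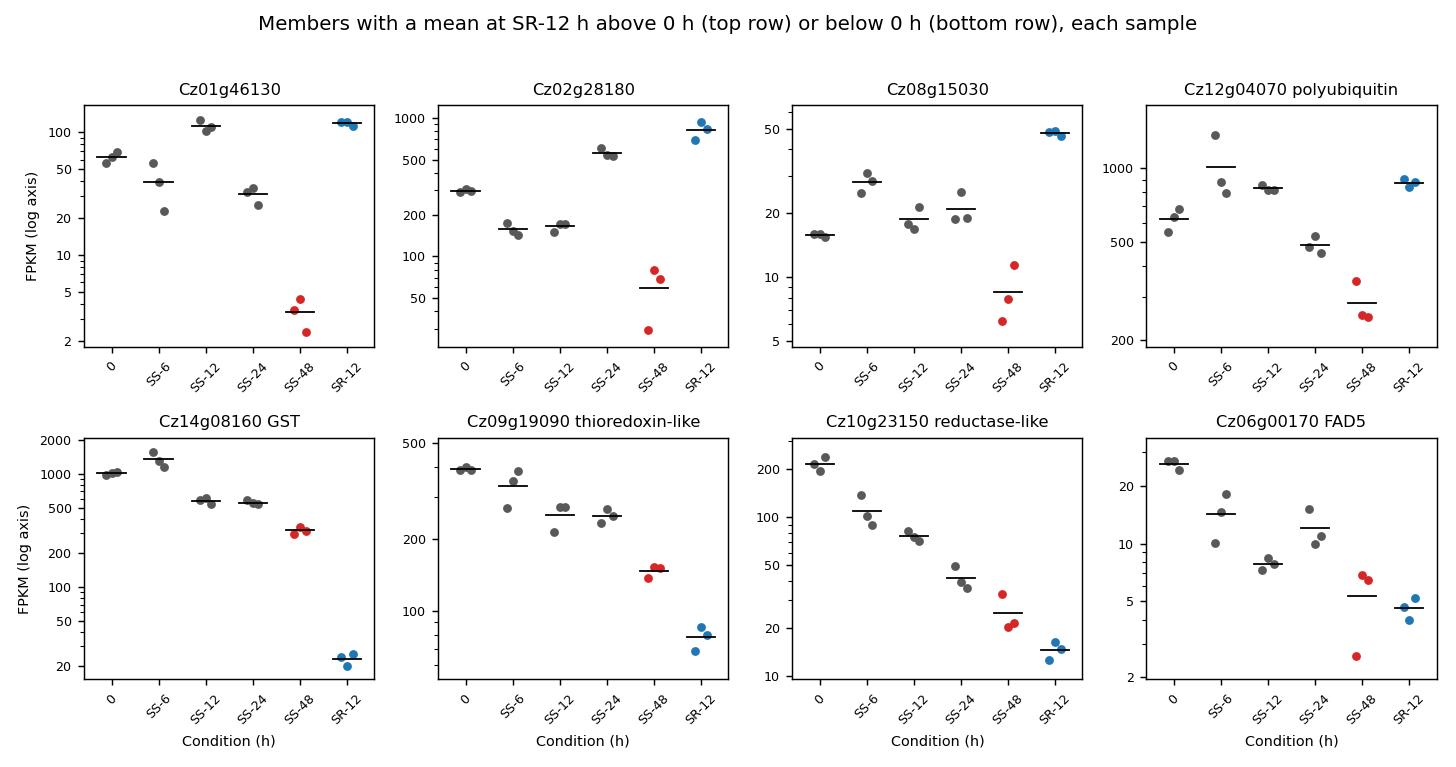
Each panel gives the FPKM (log axis) of 1 gene in each of the 18 samples over the 6 conditions, with the mean of the 3 replicates as a bar, SS-48 h in red and SR-12 h in blue. The genes of the top row have an SR-12 h mean above that of 0 h and those of the bottom row one below it; Cz14g08160 is at 24.0, 20.2 and 25.4 at SR-12 h after 294, 341 and 313 at SS-48 h.

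Some of the 150 genes lie next to each other in the order of their IDs. There are 12 such runs, which hold 25 genes, among them Cz05g34170 beside ATPD, Cz16g20020 beside PGK, and Cz18g04170, Cz18g04180 and Cz18g04190. The runs make 13 neighbouring pairs. The pair Cz17g10210 and Cz17g10220 had identical FPKM in all 18 samples and is 1 measurement. Cz18g04180 and Cz18g04190 differed by at most 0.37 in any sample, and their reads too may not have been told apart. Apart from these and from UNPLg00453 and UNPLg00454, given above, the pairs differed by 1.21 to 4.66 in at least 1 sample. By the prefix of the ID, 3 of the 22 genes named CzMTg (0.145% of all genes) and none of the 72 named CzCPg (0.473%) were among the 150. The 3 were of low level, with means at SS-48 h of 4.81 for CzMTg00100, 2.75 for CzMTg00130 and 0.307 for CzMTg00330, the last of which was not listed in SS-48 h replicate 3.

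Of the lists of pathway genes, that of photosynthesis and antenna proteins held 46 genes, 0.302% of all genes. It held 5 members of the set (3.33%), PETF, PETC, PETN, ATPC1 and ATPG. All 5, chosen for being low at SS-48 h, were called higher after replenishment, with a median of 1.66. Among the 41 other genes of the list 31 were called higher and 4 lower, with a median of 4.34. Over all genes 8.21% were called higher and 18.0% lower. Of these 41 genes, 29 were at least 1 below 0 h at SS-6 h and so could not enter the set, and the median of the 41 was -2.14 after 6 h and -4.08 after 48 h. For the 5 members these medians were -0.66 and -1.78. The study had chosen this list on these samples, and its direction is not independent evidence. The lists of chlorophyll and carotenoid synthesis (48 genes, 0.315% of all genes), of cilia and microtubules (97, 0.637%) and of the ribosome and its assembly (56, 0.368%) held no member, a count near the background for lists of this size. These lists, too, hold only genes the study called on these samples. Genes it called at SS-6 h were largely kept out by the rule, so the absence of members is not a result about these pathways. The list of lipid, carotenoid and central carbon genes held PGK and FAD5, 1.33% of the 150 genes, where its 169 genes are 1.11% of all genes, also near the background. Of its other 167 genes 9 were higher and 50 lower after replenishment than at SS-48 h.

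All 150 genes had a mean FPKM of at least 1 over the 18 samples, and 141 had one of at least 5, against 90.5% and 83.1% of all genes. At SS-48 h, 7 genes had a mean under 1 and 3 were not listed in at least 1 replicate.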

How the data were processed

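Levels were deposited as FPKM to 0.01 for each of the 18 samples. Per the labels and the study's methods, the authors purified poly-A RNA, sequenced single-end reads of 50 bp, removed low-quality and adaptor reads, mapped them with HISAT to the genome and with Bowtie2 to the genes, and calculated expression with RSEM; versions and the genome build are not given in the sources used here. Read counts were not used here, so low levels carry an unknown counting error. Depth relative to the deepest sample, from the steps between FPKM values of 0.1 to 1, was 0.756 to 1.0, and 14351 to 14867 genes were listed per sample. An unlisted gene was taken as 0.

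All 15220 genes were fitted in limma 3.58.1 (R 4.3.3; trend, no replicate block) on log2(FPKM + 1), so that folds of low genes are understated. P was adjusted over all genes for each of 2 comparisons. On simulated data 192 of 200 changed genes were recovered, with 2 false calls. Only genes well above the floor were changed there, each by more than the fold limit. Recovery of low genes or of changes near the limit was not examined. Annotation and lists come from the study's supplementary tables, part of which were used here; lists other than that of lipid, carotenoid and central carbon genes hold only genes the study called. The genes and lists were chosen with earlier results of these data known. Named are annotated members, the 2 widest margins and the 2 highest levels at 0 h. The 2 highest and 2 lowest differences at SR-12 h and the genes at the limit are named too. Cz12g26120, Cz14g18120, Cz07g19200, Cz08g15040, Cz07g23020 and the genes of neighbouring IDs were added after their values were seen. So were the CzMTg genes, PETO, PETJ and the mitochondrial ATP synthase genes. The alternatives tried were a pseudocount of 0.1 or 0.5, a floor of 1 or 5 on the mean FPKM, scaling by median ratio, to TPM or by quantiles, only the 2 conditions compared, a replicate block, no trend and leaving out each replicate. Figures were drawn with matplotlib 3.10.9.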

Additional observations from a re-analysis of the deposited data

How the results depend on the processing

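Under the other settings 65 to 95 of the 150 genes were higher after replenishment than at SS-48 h and 29 to 36 lower than at 0 h, against 73 and 34. The 5 genes lower than at SS-48 h became 3 with median-ratio scaling, 3 with quantile normalization and 8 with TPM, and the 6 higher than at 0 h became 11 with median-ratio scaling. Over all genes, the 2732 lower than at SS-48 h became 1557 with median-ratio scaling and 1809 with quantile normalization. Of the 150 genes, 131 to 150 were chosen again under the other scalings, pseudocounts and filters, and 91 with quantile normalization. Leaving out 1 replicate gave 68 to 78, 5 to 8, 5 to 7 and 30 to 36 for the 4 counts of members (higher and lower than SS-48 h, higher and lower than 0 h), the 8 without SS-48 h replicate 1, and 128 to 150 genes chosen again. Over all genes it gave 1193 to 1293 higher and 2637 to 2776 lower than SS-48 h, and 719 to 817 higher and 1247 to 1295 lower than 0 h. An alternative added after the data were seen kept only the 128 genes chosen without SS-6 h replicate 1, and gave 60, 5, 5 and 30. The causes were not tested.

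Samples of SR-12 h did not deviate together with same-numbered samples of SS-48 h or 0 h (correlations of -0.097 to 0.081). Differently numbered samples gave -0.164 to 0.186. No pairing by number was seen, but with 3 replicates the check cannot exclude one. With the replicate number as a block the 4 counts of members were 73, 5, 6 and 34, as without it, and those over all genes 1248, 2731, 759 and 1281.

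For the named genes, 1643 of the values under alternatives kept direction and call, 14 gained a call, 8 lost one and 15 changed direction, none of the last being called without the change of setting. Against 0 h these were PETF (TPM -0.03, quantile -0.11, without 0 h replicate 2 -0.01), ATPD Cz05g34180 (median-ratio 0.08, replicates left out -0.13 to 0.04), PGK (quantile -0.10), ATPC1 (quantile -0.39), ATPG (quantile -0.14), UNPLg00454 (replicates left out -0.09 to 0.23) and EF3 (median-ratio 0.09, replicates left out -0.13 to 0.06). Against SS-48 h it was FAD5 (median-ratio 0.20, quantile 0.15, replicates left out -0.46 to 0.11).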
